A study of Mus musculus with 12 samples.

Results

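The ZFP57 peaks listed for 2 wild-type mouse embryonic stem cell lines, A3 and E14, were compared by position in the mouse genome build mm9, by width, by spacing and by imprinted locus. The members were all peaks of the A3 ZFP57 list and of the E14 ZFP57 list, 2 of the 12 libraries of the series, after overlapping or touching peaks within a list had been merged. This gave 1485 A3 peaks and 602 E14 peaks. Peaks with at least 1 bp in common with a peak of the other line were called shared, and the rest A3-only or E14-only.

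The method was ChIP-seq (chromatin immunoprecipitation and sequencing), where an antibody recovers the formaldehyde-fixed DNA fragments bound by a protein. A3 cells were wild type and of strain 129X1/SvJ, and E14 cells were wild type and of strain 129P2/OlaHsd. Both lines were grown without feeder cells and with leukemia inhibitory factor, and both libraries used the same ZFP57 antibody. The culture medium also differed, in serum content and in non-essential amino acids, so line, strain and medium cannot be told apart. Each line had 1 ZFP57 library, so no value has a replicate error, no test across samples was possible, and the intervals below are 95% exact Clopper-Pearson intervals that cover counting error only. The lists hold no score and no read count, so the depth is unknown, and the number of peaks in a list moves with depth and calling threshold. The ZFP57 library of the Zfp57-/- cells was not analysed here, and peak lists do not allow the labelled cell type to be checked against marker genes.

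ZFP57 belongs to the KRAB zinc finger proteins and binds DNA when the CpG of its recognition sequence TGCCGC is methylated. At imprinting control regions, DNA methylation is set in the egg or the sperm, and only 1 parental copy carries it. ZFP57 binds that copy in the early embryo and in embryonic stem cells and, through the corepressor KAP1, is known to keep its methylation and histone H3K9 trimethylation in place.

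The recognition letters were present in reference promoters of several imprinted genes whose control regions held peaks. They are shown here because they are the sequence ZFP57 reads, and because these genes divide into those with a peak in both lines and those with a peak in E14 alone. Each stretch of 30 bases comes from the RefSeq promoter table of build GRCm38.p6, reads 5′ to 3′ on the gene's strand, and has the motif in capitals, as TGCCGC or as its reverse complement GCGGCA. The first 3 genes had a ZFP57 peak in both lines.
Nnat, chr2:157560093-157560122, plus strand: gccaccggggctGCGGCAttgcgcccagca
Plagl1, chr10:13090730-13090759, plus strand: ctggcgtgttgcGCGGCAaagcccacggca
Snrpn, chr7:60005184-60005213, minus strand: gacccctgcattGCGGCAaaaatgtgcgca
The other 3 genes had a peak in E14 and none in A3.
Mest, chr6:30737971-30738000, plus strand: aggaggggcgctGCGGCAggatgggcgggt
Nap1l5, chr6:58907133-58907162, minus strand: cagccattcactTGCCGCgagccgcgaagc
Mcts2, chr2:152686898-152686927, plus strand: gccTGCCGCagcttggcgcatgtccagtcc

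Of the 15 imprinted genes listed for this search, 11 were in the promoter table, and 6 of these held TGCCGC on either strand in at least 1 promoter of 300 bases, from 250 before to 50 after the start site. The interval for these 6 of 11 was 23.4 to 83.3%. Among all 27025 genes in the table, 13.1% held it. Counted by promoter, 7 of the 18 promoters of the 11 genes held it, against 11.6% of all promoters. The 7 include overlapping Mest promoters that hold the same letters, so they are not 7 separate sequences. The base composition of the promoters was not compared. Peg3 and Kcnq1ot1, which had peaks in both lines, Zrsr1 and Airn, which had a peak in E14 alone, and Slc38a4, which had none, did not hold these letters in the window. The letters were therefore found in 3 of the 5 matched genes with a peak in both lines and in 3 of the 5 with a peak in E14 alone. The table is of another build than the peaks, so whether a printed stretch lies under a peak was not determined, and a match is a description of the letters and not a site. Coordinates from here on are those of mm9.

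The imprinted loci were 22 control regions whose methylation is set in the germline. Their mm9 positions were taken from general knowledge of the field, rounded to the nearest kb, and a peak was assigned to a region when it lay within 10 kb of it. E14 had a ZFP57 peak at 20 of the 22 regions and A3 at 12, and each of the 12 A3 regions also had an E14 peak. At 8 regions the peak was in E14 alone, at 0 in A3 alone, and at 2 in neither. The A3 list thus held peaks at fewer of these regions although it was the longer list. By parental origin, E14 had a peak at 17 and A3 at 10 of the 19 regions methylated on the maternal copy, and E14 had a peak at 3 and A3 at 2 of the 3 methylated on the paternal copy.

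At all 12 regions present in both lists the A3 and E14 peaks overlapped. At Nnat, the gene of the membrane proteolipid neuronatin, both lists had chr2:157385251-157386450, with a width of 1200 bp. At the Gnas cluster, where Nespas is the antisense transcript, both had a peak of 750 bp at chr2:174121201-174121950. E14 had a second, E14-only peak there at chr2:174125101-174125550, with a gap of 3.15 kb to the A3 peak. Both lists had chr6:4697701-4698150 at Peg10, a retrotransposon-derived gene needed by the placenta, and chr7:135831301-135831750 at Inpp5f_v2, the imprinted short transcript of a phosphatase gene. These last peaks were 450 bp wide. The paternally methylated intergenic region between Dlk1 and Meg3 had a peak of 600 bp with the same ends in both lists, chr12:110766301-110766900. These 5 regions had the same 150 bp windows called in both lines.

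The other 7 regions differed in width between the lists. At Snrpn, whose control region governs the Prader-Willi and Angelman cluster, A3 had 1200 bp at chr7:67149001-67150200 and E14 had 600 bp at chr7:67149301-67149900. At Peg3, the gene of a zinc finger protein, A3 had 750 bp at chr7:6681751-6682500 and E14 had 600 bp from the same start. At Cdh15, a cadherin gene, A3 had 900 bp at chr8:125388751-125389650 and E14 had 750 bp from the same start. At the paternally methylated region of Rasgrf1, a guanine nucleotide exchange factor gene, A3 had 750 bp at chr9:89774251-89775000 and E14 had 600 bp from the same start. A3 was the wider at these 4 regions.

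E14 was the wider at the remaining 3. At Plagl1, the gene of a zinc finger transcription factor, A3 had 750 bp at chr10:12810451-12811200 and E14 had 1200 bp at chr10:12810151-12811350. At Peg13, a noncoding RNA gene inside Trappc9, A3 had 750 bp at chr15:72640051-72640800 and E14 had 1050 bp at chr15:72639901-72640950. At the promoter of Kcnq1ot1, the noncoding RNA of the Kcnq1 cluster, A3 had 450 bp at chr7:150481351-150481800 and E14 had 600 bp from the same start. At each of these 7 regions the narrower peak lay wholly inside the wider one, and over all 12 the midpoints were at most 75 bp apart.

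The 8 regions with a peak in E14 alone covered several kinds of imprinted locus. At Mest, an imprinted gene of the hydrolase family, E14 had 900 bp at chr6:30687151-30688050. Grb10, the gene of an adaptor protein of insulin signalling, had an E14 peak of 600 bp at chr11:11925901-11926500. The region of Igf2r, where the noncoding RNA Airn starts, had an E14 peak of 450 bp at chr17:12934951-12935400. The paternally methylated control region of H19 and Igf2 had 2 E14 peaks of 600 bp, at chr7:149765851-149766450 and chr7:149767501-149768100. Impact, on chromosome 18, had an E14 peak of 600 bp. None of these had an A3 peak in its window.

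The remaining regions called in E14 alone belong to imprinted genes that lie in an intron of another gene. Nap1l5, inside Herc3, had an E14 peak of 900 bp at chr6:58856551-58857450. Zrsr1, inside Commd1, had 1050 bp at chr11:22871851-22872900, and Mcts2, inside H13, had 600 bp at chr2:152512351-152512950. Together with Inpp5f_v2 and Peg13, E14 had a peak at all 5 such regions in the list and A3 at 2.

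From the 9 E14 peaks at the 8 regions, the nearest A3 peak lay 124.8 kb away at Mest and 1625 kb away at Grb10, the smallest and largest gaps, with a median of 713 kb. None of the 22 E14 peaks in the windows had the minimum width of 300 bp, which 42.5% of the E14 list had. The lists hold no score, so A3 signal below the calling threshold at these regions cannot be seen. The E14-only peaks in the windows ranged from 450 to 1050 bp with a median of 600 bp, and the shared ones from 450 to 1200 bp with the same median. Neither list had a peak within 10 kb of Gnas exon 1A or Slc38a4, and an empty window says only that no peak was listed there.

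**Figure D1:**
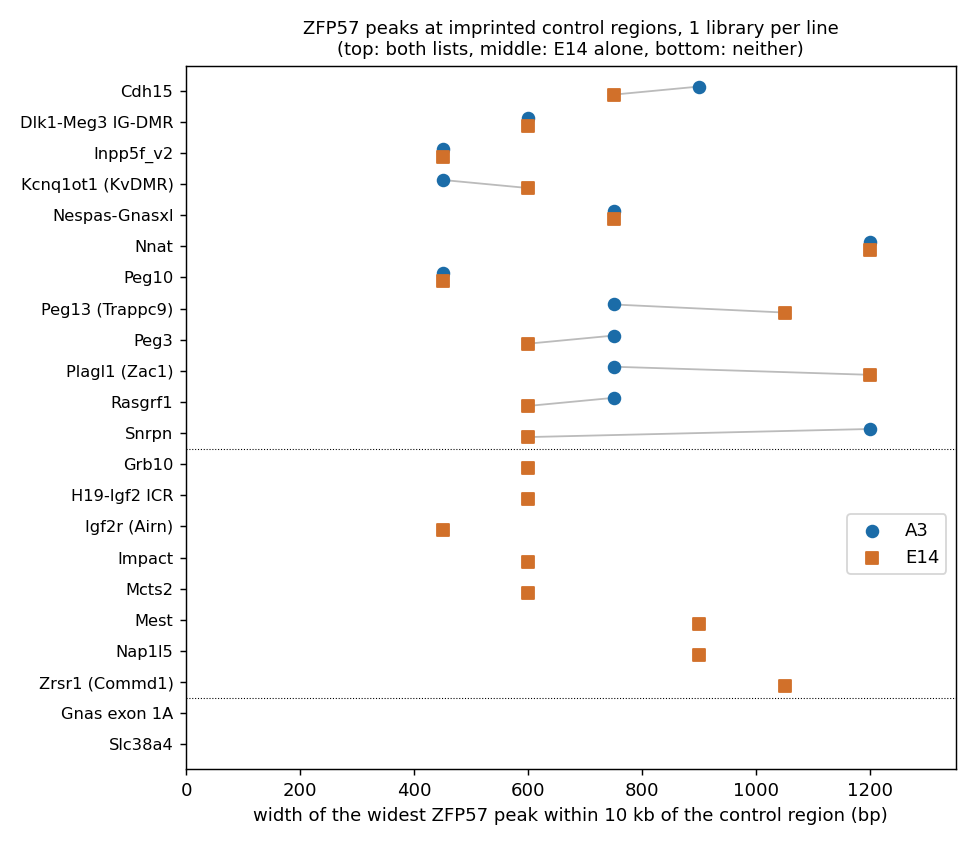
Width in bp (x axis) of the widest ZFP57 peak within 10 kb of each of 22 imprinted control regions (y axis), with A3 as circles, E14 as squares and a grey line joining the pair. The 12 regions in the upper block have a peak in both lists, the 8 in the middle block in E14 alone and the 2 at the bottom in neither.

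Across the whole lists, 56 A3 peaks overlapped 56 E14 peaks, each matching exactly 1. This was 3.77% of the A3 list (2.86 to 4.87%) and 9.30% of the E14 list (7.10 to 11.9%). The lists together made 2031 separate sites, of which 1429 were A3-only and 546 E14-only. Control regions made up 12 of the 56 shared peaks (21.4%, 11.6 to 34.4%) and 10 of the 546 E14-only peaks (1.83%, 0.882 to 3.34%). They made up 0 of the 1429 A3-only peaks, a count under which a share of up to 0.258% remains possible. Seen from E14, 12 of the 22 peaks in the windows were shared (54.5%, 32.2 to 75.6%), against 44 of the 580 outside them (7.59%, 5.57 to 10.1%). The peaks outside included all 256 E14 peaks of the minimum width of 300 bp, of which 0 were shared. The part of width in this contrast was not tested. In bases, the lists had 67.95 kb in common, which was 9.53% of the bases in A3 peaks and 20.2% of those in E14 peaks. Leaving aside pairs with a peak over 1500 bp, the bases in common came to 30.0 kb.

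Where a peak was shared, the lists placed it at nearly the same windows. Both ends were the same at 31 of the 56 sites, 1 end at 16, and neither at 9. The widths differed by at most 150 bp, the size of 1 window, at 44 sites. E14 was the wider at 14 sites and A3 at 11. The narrower peak lay wholly inside the wider one at all 56 sites. The midpoints were at most 375 bp apart, at the site on chromosome 6 where A3 had chr6:149310901-149311500 and E14 had chr6:149310001-149311650. The smallest overlap was 300 bp, so no shared pair rested on a touch of a few bases. Just outside the rule, the closest E14-only peak was chr10:79202701-79203000, with a gap of 0.15 kb to an A3 peak that was itself shared. The closest A3-only peak, chr9:3003751-3007650, had a gap of 0.45 kb to a shared E14 peak. The next closest A3-only peaks had gaps of 1.2 kb at chr3:15662551-15663750, 1.35 kb at chr8:106193401-106193850 and 2.85 kb at both chr12:116302351-116302950 and chrX:122653051-122653500.

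**Figure D2:**
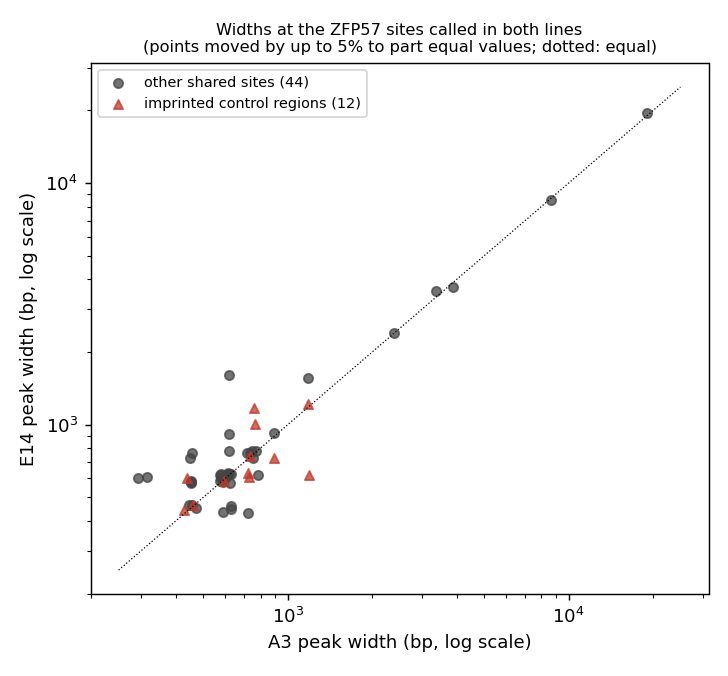
A3 peak width against E14 peak width in bp, both on log scales, for the 56 shared sites, with 12 imprinted control regions as triangles and the other 44 as circles, and equal widths on the dotted line. At 31 sites the widths were the same, and points were moved by up to 5% so that equal values can be seen.

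Outside the control regions, 44 sites were shared, and the 12 with the largest smaller width of the pair were named. The widest was on chromosome 1, at chr1:87479101-87498150 in A3 and chr1:87479251-87498150 in E14. The next 4 were all at the start of chromosome 9, where the sequence assembled in mm9 begins. They lay at chr9:2999851-3003300, chr9:3011101-3013500 and chr9:3034501-3038400 with the same ends in both lists, and at chr9:3021601-3030600 in A3 and chr9:3021901-3030600 in E14. The closest A3-only peak named above, of 3900 bp, lay between them. Over this stretch A3 had 5 peaks summing to 22650 bp and E14 had 4 summing to 18450 bp. Signal of the A3 and E14 input libraries was not examined here. Background at these wide peaks can therefore not be told apart from ZFP57 binding.

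The other 7 named sites had widths closer to those of the control regions. On chromosome 7, A3 had 1200 bp at chr7:134754601-134755800 and E14 had 1500 bp at chr7:134754301-134755800. The A3 peak there had been deposited as 2 touching peaks of 600 bp, as had the E14 peak at Nnat, and these were the merges in each list. The site chr18:74520001-74520900 was 900 bp wide in both lists. The sites chr4:140379301-140380050, chr9:35112601-35113350, chr10:79201801-79202550, chr17:6324451-6325200 and chr17:36621451-36622200 were each 750 bp wide with the same ends in both lists. The 32 shared sites outside this group and the control regions lay on 14 chromosomes and were between 300 and 1650 bp wide, and in 23 of them both peaks were 450 or 600 bp. These sites are given by position because no mm9 gene annotation was used here.

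The share of peaks called in both lines moved with width. Of the A3 peaks at the minimum width of 300 bp, 2 of 802 were shared (0.249%, 0.0302 to 0.898%). The share was 2.79% at 450 bp, 13.2% at 600 bp (21 of 159, 8.37 to 19.5%) and 18.8% at 750 bp (12 of 64, 10.1 to 30.5%). In E14, 0 of 256 peaks of 300 bp were shared, a count under which a share of up to 1.43% remains possible. The E14 share was 5.26% at 450 bp, 22.3% at 600 bp (25 of 112, 15.0 to 31.2%) and 35.7% at 750 bp (10 of 28, 18.6 to 55.9%). Peaks of 300 and 450 bp made up 80.5% of the A3 list and 70.9% of the E14 list.

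Above 750 bp the classes were small. At 900 bp, 2 of 27 A3 peaks (7.41%, 0.91 to 24.3%) and 2 of 9 E14 peaks (22.2%, 2.81 to 60.0%) were shared. Between 1050 and 1500 bp, 3 of 23 A3 peaks and 4 of 16 E14 peaks were. Over 1500 bp, 5 of 16 A3 peaks (31.3%, 11.02 to 58.7%) and 6 of 10 E14 peaks (60.0%, 26.2 to 87.8%) were, and 5 of these sites were the chromosome 1 and chromosome 9 regions above. The intervals of these classes overlap widely, so no order among them can be read.

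**Figure D3:**
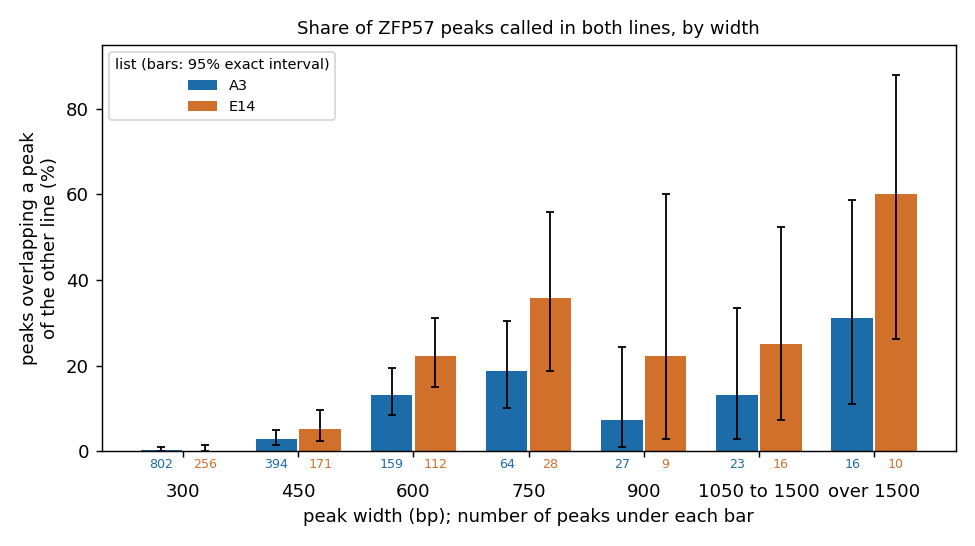
Share of ZFP57 peaks in percent (y axis) that overlapped a peak of the other line, by peak width class in bp (x axis), for the A3 and E14 lists, with 95% exact intervals as black bars and the number of peaks under each bar. The share is 0.249% in A3 and 0 in E14 at 300 bp, and reaches 18.8% and 35.7% at 750 bp.

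The widest peaks of 1 line alone lay away from the control regions. In A3 they were chrY:2849551-2872500, chr4:145146451-145153200, chrX:120113551-120119700, chr12:94123801-94129650 and chr4:145705351-145709250. In E14 they were chr1:85266301-85282950, chr4:145038301-145044600, chr4:146017351-146021550, chr5:130162651-130164450 and chr2:98506201-98507700. The chromosome 4 peaks fell in the same region of that chromosome in both lines without meeting. From the A3-only peak at chr4:145146451-145153200 the nearest E14 peak was 55.5 kb away. Input signal was not examined at these widest peaks either.

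The peaks were spread widely, with a median gap from an A3 peak to the next A3 peak on its chromosome of 784 kb (quartiles 257 and 2029 kb) and of 2432 kb in E14 (796 and 5946 kb). A longer list tends to have shorter gaps, and the part of list length in this difference was not tested. Gaps of at most 10 kb made up 2.66% of the A3 gaps (39 of 1464) and 2.41% of the E14 gaps (14 of 581), so few peaks of either list came in tight groups. Between the lists, the median distance from an A3-only peak to the nearest E14 peak was 1518 kb, and from an E14-only peak to the nearest A3 peak 675 kb. Within 10 kb of a peak of the other line lay 10 of the 1429 A3-only peaks (0.7%) and 9 of the 546 E14-only peaks (1.65%). Most peaks of 1 line alone thus had no peak of the other line nearby. Shared peaks lay far from each other, with a median gap of 18823 kb to the next shared peak, and 3 of the 37 gaps were of at most 10 kb, all in the chromosome 9 group.

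**Figure D4:**
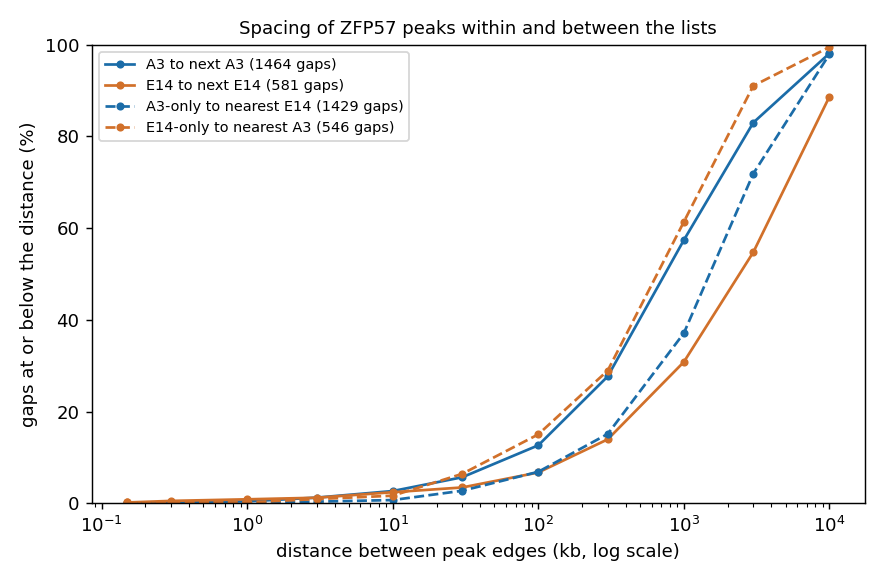
Percent of gaps (y axis) at or below a distance between peak edges in kb (x axis, log scale), from a peak to the next of its own list (solid lines) and from a peak of 1 line alone to the nearest of the other list (dashed lines). At 10 kb all curves are below 3%, and at 1000 kb they lie between 30.8% and 61.4%.

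The A3 list was the longer, at 1485 peaks against 602, so a higher A3 count on a chromosome follows in part from list length. A3 outnumbered E14 on all chromosomes except chromosome 6, where A3 had 38 peaks and E14 had 40. The excess was uneven between chromosomes and, on chromosome 14, along the chromosome, as the 10 Mb bins below show. The A3 count was 6.87 times the E14 count on chromosome 14 (158 and 23), 4.72 times on chromosome 1 (203 and 43), 4.25 times on chromosome Y (17 and 4), 3.72 times on chromosome 8 (134 and 36) and 3.66 times on chromosome 2 (161 and 44). It was 1.14 times on chromosome 11 (32 and 28) and 1.31 times on chromosome 17 (38 and 29). On chromosomes 3, 4, 5, 7, 9, 10, 12, 13, 15 and 16 it lay between 1.88 and 2.34 times. Chromosomes 1, 2, 8 and 14, a set picked from earlier results on these lists, held 656 A3 peaks (44.2% of the list, 41.6 to 46.7%) and 146 E14 peaks (24.3%, 20.9 to 27.9%).

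On those 4 chromosomes lay 7 of the 56 shared peaks, which was 1.07% of the A3 peaks and 4.79% of the E14 peaks there. The other chromosomes held the other 49, which was 5.91% of their A3 peaks and 10.7% of their E14 peaks. As the set was picked for its many A3 peaks, a low shared part of the A3 peaks there follows in large part from the choice, and these values are a description. The E14 intervals overlap (1.95 to 9.63% and 8.06 to 13.96%). Chromosomes 9 and 12 had 7 shared peaks each and chromosome 7 had 6. Of the 7 on chromosome 9, 4 were the group at its start, and 4 of the 6 on chromosome 7 were control regions. Chromosomes 3 and 19 had none among 89 and 26 A3 peaks. On chromosome 14, 1 of 158 A3 peaks was shared.

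The A3 peaks on chromosome 14 were also the widest by median, at 600 bp, and 15.8% of them had the minimum width of 300 bp. That share was 44.8% on chromosome 1, 39.6% on chromosome 8 and 66.5% on chromosome 2, so the chromosomes with an A3 excess were not alike in width. On the other chromosomes together it was 63.4%. In E14, 52.2% of the chromosome 14 peaks had the minimum width, against 42.5% of the whole list. The median gap between neighbouring A3 peaks was 216 kb on chromosome 14, 552 kb on chromosome 8, 617 kb on chromosome 1 and 639 kb on chromosome 2, against 1280 kb on the other chromosomes. In E14 it was 3992 kb on chromosome 14 and 2432 kb outside the 4 chromosomes. Copy number and background were not measured here, and their part in these counts was not tested.

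**Figure D5:**
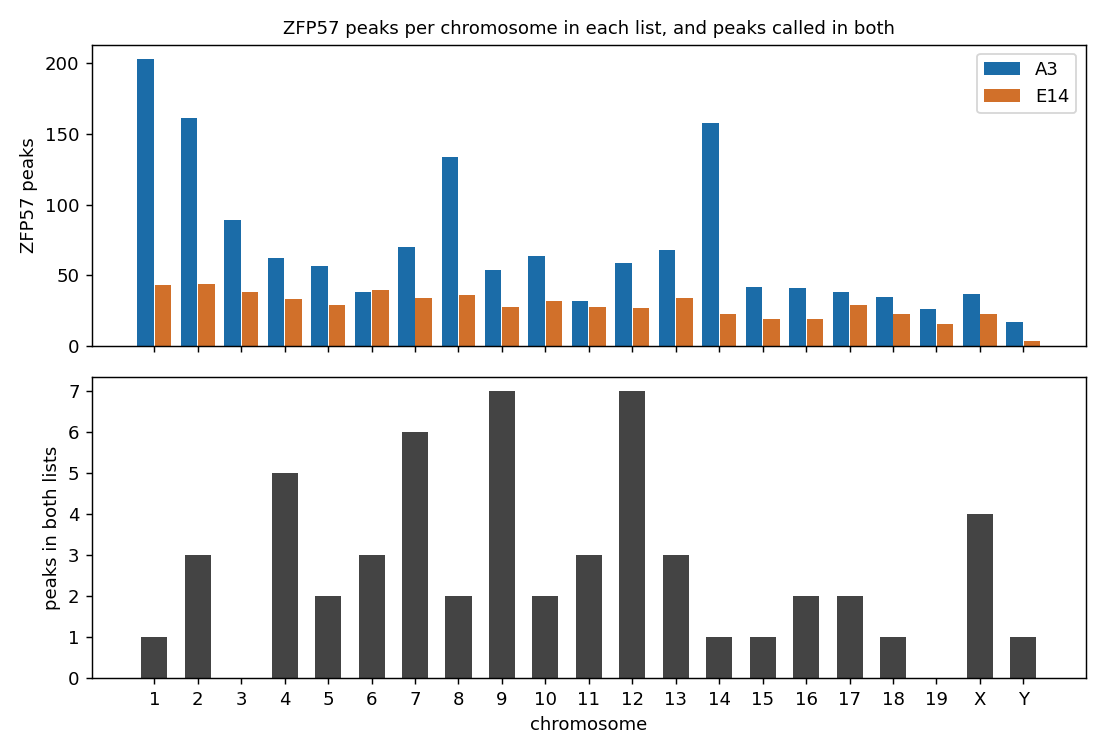
Number of ZFP57 peaks on each chromosome (x axis) in the A3 and E14 lists (upper panel) and number called in both (lower panel). A3 bars stand highest on chromosomes 1, 2, 14 and 8 with 203, 161, 158 and 134 peaks, while the shared counts are highest on chromosomes 9 and 12 with 7 each. Of the 7 on chromosome 9, 4 are the group at its start.

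At a scale of 10 Mb, A3 had more peaks than E14 in 194 of 272 bins along the chromosomes, fewer in 48 and as many in 30. As the A3 list was the longer, this follows in part from list length. A shared peak lay in 45 bins. On chromosome 14 the A3 excess lay mostly in bins 9 to 13, counted from the chromosome start. These held 27, 38, 26, 29 and 12 A3 peaks and 1, 2, 2, 3 and 0 E14 peaks. Bins 1 to 8 held at most 7 A3 and at most 4 E14 peaks each. At 1 Mb, the densest A3 windows were on chromosome 14 between 92 and 93 Mb, with 10 A3 peaks of median width 975 bp and 1 E14 peak, on chromosome X between 120 and 121 Mb, with 9 A3 and 7 E14 peaks, and on chromosome Y between 2 and 3 Mb, with 8 A3 peaks and 0 E14 peaks. The densest E14 windows were the same one on chromosome X, chromosome 17 between 6 and 7 Mb, with 6 E14 peaks and 1 A3 peak, and chromosome 2 between 98 and 99 Mb, with 4 E14 and 2 A3 peaks.

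The chromosome X region was dense in both lists. Between 120 and 123 Mb lay 18 of the 37 A3 peaks on that chromosome (48.6%) and 13 of the 23 E14 peaks (56.5%), and the limits of this stretch were chosen after the positions were seen. Of these, 3 were shared, each with the same ends in both lines, which was 16.7% of the A3 peaks there and 23.1% of the E14 peaks, against 3.77% and 9.30% over the whole lists. They lay at chrX:120872851-120873450, chrX:120964801-120965250 and chrX:121094251-121094850. The shares rest on these 3 peaks in a stretch chosen after the fact, so no difference from the whole lists can be read. The A3 peaks of the stretch were 300 to 6150 bp wide and the E14 peaks 300 to 600 bp.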

How the data were processed

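ChIP-seq peaks of ZFP57 were compared between 1 A3 and 1 E14 library. The deposited files, made by the authors, give chromosome, start and end of each peak with no score. Build mm9 and the tools Bowtie 0.12.7, bedtools 2.14.3-1, CASAVA 1.8.2 and SAMtools 0.1.18 are listed in the submitters' processing notes. Peak caller, threshold and input use were not given in the sources used here. All deposited peaks fill whole windows of 150 bp, so widths and offsets are known to 150 bp at best. Starts were reduced by 1 and overlapping or touching peaks merged, which turned 1486 A3 peaks into 1485 and 603 E14 peaks into 602.

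Named sites were all 22 control regions, the 12 other shared sites with the largest smaller width, the 5 widest peaks of each line alone, the 5 A3-only peaks closest to an E14 peak and the 3 densest windows of 1 Mb per list. A shared site on chromosome 6 and 3 on chromosome X were named after their values were seen. The members and lists were chosen with earlier results of these data known. The control region positions came from general knowledge and were not checked against an annotation. The work used scipy 1.17.1, numpy 2.4.6, Python 3.11.15, matplotlib 3.10.9 and pandas 2.3.3, and overlap and distance were tested on simulated data against bedtools 2.31.1. The KAP1 lists were not used here.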

Additional observations from a re-analysis of the deposited data

How the results depend on the processing

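The comparison was repeated with peaks within 1 kb taken as shared, a reciprocal overlap of 50%, peaks wider than 300 bp, no peaks over 1500 bp, autosomes alone, no chromosomes 1, 2, 8 and 14, unmerged peaks, and, for control regions, windows of 5 and 50 kb. Of 84 alternative values, 75 stayed within the 95% interval of the reported value or, for counts, within 1.5 times of it. Some of these could not move. The 1 kb and reciprocal overlap rules leave the gaps within a list and the chromosome 14 shares unchanged. All control region peaks were 450 to 1200 bp wide, so neither the width limits nor the merging could change the region counts. The 75 therefore overstate how far the results were tested. With peaks wider than 300 bp, each list holds fewer peaks by construction. The median gap was then 1009 kb in A3 and 3685 kb in E14, and A3-only peaks lay a median of 3501 kb from an E14 peak. Shared peaks made up 7.91% of A3 and 15.6% of E14, and chromosome 14 held 19.5% of A3. The peaks left out were seldom shared (2 of 802 in A3, 0 of 256 in E14). They made up 15.8% of the A3 peaks on chromosome 14 and 54.0% of the A3 list. Without chromosomes 1, 2, 8 and 14, 5.91% of A3 was shared, the A3 median gap was 1280 kb and the median distance from A3-only to E14 peaks 1349 kb; no chromosome 14 share exists there. Control regions with a peak numbered 12 in A3 and 20 in E14 in each alternative run except the 50 kb window, with 13 and 21. A window of 50 kb may reach peaks already counted at a neighbouring region, as in the Gnas cluster, and this was not checked. TGCCGC was in 54.5% of the matched imprinted genes, against 13.1% of all genes. Before the start site alone, it was in 36.4% of the matched genes, against 9.84% of all genes. No paired analysis was possible because each line has 1 library and the result comes from no test. Depth is unknown, so a site missing from a list may be below its threshold.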
